A study of Mus musculus with 10 samples.

Results

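The 8 genes described here encode killer cell lectin-like and natural killer (NK) receptors: Klrk1, Klre1, Klrd1, Klrc1, Klrc2, Klrb1c, Klrg1 and Ncr1. They were chosen by gene symbol from the 23992 symbols listed for each library, and where a symbol has several transcripts, the most read one over the 10 libraries stands for it. Mouse CD8+ T cells from C57BL/6N spleens received CD3 and CD28 stimulation for 48 h, followed by 48 h of culture in 1 of 5 conditions, with 2 poly(A) RNA libraries each. The groups were IL-21 (mouse, 100 ng/ml) with the lactate dehydrogenase (LDH) inhibitor NCI-737 at 1 µM, IL-2 (human, 100 IU/ml) with the same inhibitor, IL-21 alone, IL-2 alone, and no cytokine. The inhibitor, a compound known by its code name and abbreviated LDHi here, was present from activation onward. No group had the inhibitor without a cytokine, and all groups share the splenic origin and the CD3 and CD28 stimulation. All 8 genes passed the filter on low counts, although Ncr1 reached its cutoff in 4 libraries and Klrg1 in 6.

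NK cells and activated CD8+ T cells carry receptors that read stress-induced or classical and non-classical class I molecules on other cells and either promote or restrain killing. NKG2D, the product of Klrk1, is an activating receptor that lends costimulation to CD8+ T cells through the adaptor DAP10 (Hcst). CD94, the product of Klrd1, pairs with the inhibitory NKG2A (Klrc1) or the activating NKG2C (Klrc2), and these pairs bind Qa-1, the product of H2-T23. Klre1 pairs with the products of Klri1 or Klri2. Klrb1c encodes NK1.1, an activating receptor used to identify NK cells in C57BL/6 mice. Klrg1 encodes an inhibitory receptor for cadherins that marks terminally differentiated effector T cells, and Ncr1 encodes NKp46, an activating receptor that is largely restricted to NK cells and related innate lymphocytes.

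In mm10, the build of the files, 7 of the genes lie on chromosome 6 and Ncr1 on chromosome 7. Klre1 (chr6:129559365-129585828, plus strand), Klrd1 (chr6:129588092-129598775, plus), Klrk1 (chr6:129610323-129623903, minus), Klrc2 (chr6:129649602-129660737, minus) and Klrc1 (chr6:129666015-129682852, minus) are close neighbours in the NK gene complex. Klrb1c (chr6:128778485-128788641, minus) lies in the same complex farther away, Klrg1 (chr6:122270596-122282833, minus) lies elsewhere on the chromosome, and Ncr1 spans chr7:4337715-4345184 on the plus strand. RefSeq promoters (GRCm38.p6, the same assembly as mm10) were found for 6 of the 8 genes, running from 250 bases before to 50 bases after the start site. They are shown because most of these genes changed together, and the start site farthest upstream is given where the table lists several. Capitals mark the matches, on either strand, to 3 of the 5 short motifs searched.
Klrk1 promoter, chr6:129623815-129624114, minus strand: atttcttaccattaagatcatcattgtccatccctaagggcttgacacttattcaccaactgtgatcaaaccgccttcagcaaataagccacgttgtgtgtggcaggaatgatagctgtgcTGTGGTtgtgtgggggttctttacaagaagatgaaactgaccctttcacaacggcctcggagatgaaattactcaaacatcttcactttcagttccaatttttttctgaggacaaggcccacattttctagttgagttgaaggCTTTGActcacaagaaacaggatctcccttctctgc
Klrc1 promoter, chr6:129678924-129679223, minus strand: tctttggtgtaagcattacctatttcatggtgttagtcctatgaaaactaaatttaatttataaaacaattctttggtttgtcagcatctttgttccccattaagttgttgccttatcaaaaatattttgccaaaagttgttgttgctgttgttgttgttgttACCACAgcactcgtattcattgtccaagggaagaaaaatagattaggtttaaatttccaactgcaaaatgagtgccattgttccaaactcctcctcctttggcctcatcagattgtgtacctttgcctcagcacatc
Klrc2 promoter, chr6:129660547-129660846, minus strand: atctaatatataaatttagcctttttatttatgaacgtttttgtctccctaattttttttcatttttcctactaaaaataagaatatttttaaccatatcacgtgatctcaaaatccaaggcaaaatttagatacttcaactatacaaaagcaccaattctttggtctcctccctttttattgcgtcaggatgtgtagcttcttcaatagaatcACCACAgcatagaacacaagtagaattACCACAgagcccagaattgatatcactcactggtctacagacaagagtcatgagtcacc
Klre1 promoter, chr6:129577963-129578262, plus strand: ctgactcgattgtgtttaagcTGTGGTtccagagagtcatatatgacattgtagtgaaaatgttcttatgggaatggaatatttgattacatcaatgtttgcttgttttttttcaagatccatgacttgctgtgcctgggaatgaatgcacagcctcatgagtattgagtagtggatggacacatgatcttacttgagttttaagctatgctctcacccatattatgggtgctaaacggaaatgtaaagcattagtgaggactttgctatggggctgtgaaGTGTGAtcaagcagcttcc
Klrb1c promoter, chr6:128788592-128788891, minus strand: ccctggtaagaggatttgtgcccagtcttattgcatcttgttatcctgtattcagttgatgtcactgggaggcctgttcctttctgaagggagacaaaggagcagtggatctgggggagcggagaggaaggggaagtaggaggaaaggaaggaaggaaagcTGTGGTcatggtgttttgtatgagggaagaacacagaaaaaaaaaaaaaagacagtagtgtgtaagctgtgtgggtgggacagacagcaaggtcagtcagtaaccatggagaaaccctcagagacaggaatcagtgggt
Ncr1 promoter, chr7:4337465-4337764, plus strand: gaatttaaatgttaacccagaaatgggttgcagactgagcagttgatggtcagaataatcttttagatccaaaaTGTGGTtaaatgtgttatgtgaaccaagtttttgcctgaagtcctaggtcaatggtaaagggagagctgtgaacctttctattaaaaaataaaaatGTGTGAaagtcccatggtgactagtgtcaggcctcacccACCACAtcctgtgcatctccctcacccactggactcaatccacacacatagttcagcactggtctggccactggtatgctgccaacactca
The RUNX motif TGTGGT (or its reverse complement ACCACA) occurred in each of these 6 promoters and in 16.8% of all 32851 promoters in the table. The T-box motif TCACAC occurred in those of Klre1 and Ncr1 and in 14.5% of all promoters. The TCF motif CTTTGA occurred in that of Klrk1 and in 16% of all promoters. The STAT motif TTCNNNGAA (8.3% of all promoters) and the ETS motif CAGGAAGT (3.33%) had no match in these 6 windows. No matches overlapped one another. With the other start site of Klre1 the RUNX match falls outside the window. The start sites used for Klrk1, Klrc1, Klrc2 and Klre1 lie inside the gene spans given above. Klrd1 and Klrg1 are named only. A letter match is a description of the sequence.

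Library depth ran between 27137186 and 46656186 reads on the transcripts used, the fewest in IL-21 replicate 2. The IL-21 replicates lay farthest apart, with an SD of their log2 difference over genes of 0.76, against 0.302 to 0.488 in the other groups. Leaving out IL-21 replicate 1 raised the number of genes called to 3967, against 1657 with all libraries, for IL-21 against no cytokine, and to 5201, against 3122, for the interaction. Whether the 2 libraries of a group came from separate mice or cultures is not stated in the labels. The p-values thus measure only the spread between libraries, possibly technical. Fold changes are log2 values ± SE from edgeR's quasi-likelihood fit over the 10 libraries, with p-values adjusted over 14357 genes, and genes with an adjusted p below 0.05 are called changed. Levels are RPKM (read number scaled to transcript length and library size), which allow comparison between genes. Of the 50-base windows of Klrc1, Klrc2 and Klrb1c, 40.3%, 52% and 29.7% also occur in other transcripts, mostly those of Klrc2, of Klrc3 and of Gm44511, so the split of reads among such neighbours is uncertain. The other 5 genes had no such windows in the transcripts searched. The transcript searched had 1270 bases for Klrk1 and 1658 for Klrb1c, against 3272 and 2632 in those counted. Part of the sequence of both genes was thus not searched. RNA of 12 CD8 T cell identity genes was at or above 1 RPKM in every library. In bulk RNA of this kind, fewer cells that express a gene and less RNA per cell cannot be told apart.

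Klrd1 had the highest level of the 8 genes in every library, between 61.95 RPKM (IL-21 + LDHi replicate 2) and 225.2 RPKM (replicate 2 without cytokine). In the cultures with IL-21 or IL-2 alone, Klrk1 came next at 35.8 to 43.4 RPKM, followed by Klrc1 at 14.1 to 30.3 RPKM. Klre1 and Klrc2 lay between 6.06 and 10.7 RPKM there. Klrb1c, Klrg1 and Ncr1 stayed below 1 RPKM in every library without the inhibitor. The IL-21 + LDHi libraries held the lowest levels of Klrk1, Klre1, Klrd1, Klrc1, Klrc2 and Klrb1c.

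**Figure D1:**
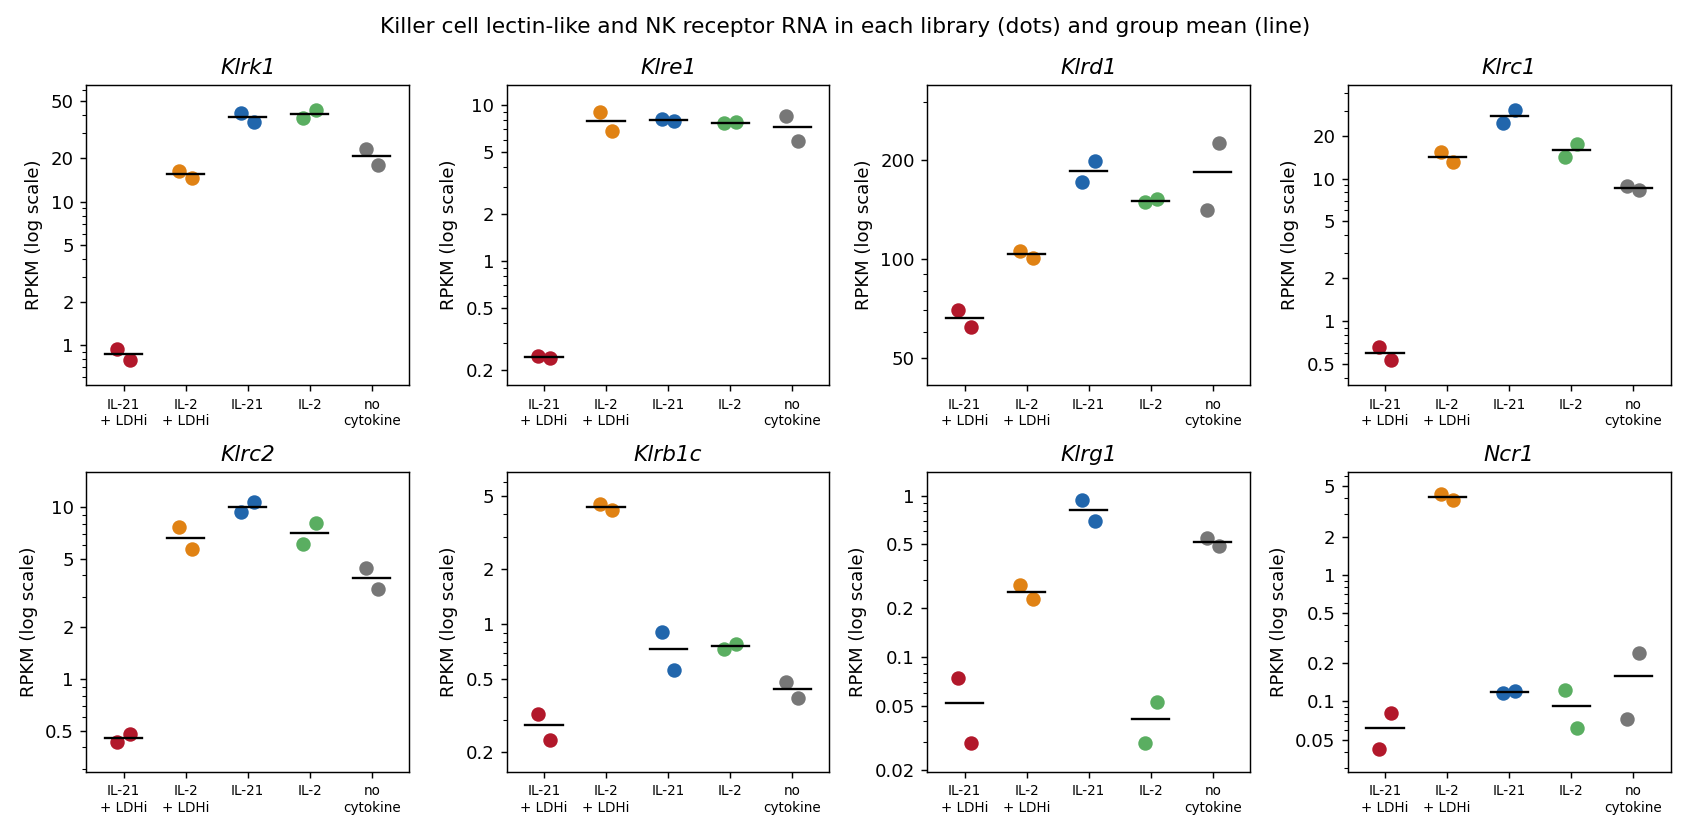
RPKM of each receptor gene (log axis, a separate range in each panel) in the 5 groups, with a dot for each of the 2 libraries and a line at the group mean. Klrk1, Klre1, Klrc1 and Klrc2 lie below 1 RPKM in the IL-21 + LDHi libraries and above 3 RPKM in all others, while Klrb1c and Ncr1 lie above 3 RPKM in the IL-2 + LDHi libraries alone.

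With the LDH inhibitor, cells given IL-21 held far less RNA for NKG2D, NKG2A, NKG2C and Klre1 than with IL-21 alone, and less for CD94. IL-21 + LDHi cells were called lower than IL-21 cells for 7 of the 8 genes and higher for 0, with Ncr1 not called. Over all genes tested 20.3% were called lower in this comparison and 11.1% higher. The members' median log2 fold change was -4.23, against -0.03 over all genes tested. The call count of 7 was unchanged in each fit that left out 1 library, either IL-21 library included.

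Klrk1 had 0.947 and 0.792 RPKM in IL-21 + LDHi cells, against 41.6 and 35.8 RPKM in IL-21 cells. Its log2 fold change was -5.51 ± 0.18 (edgeR adjusted p = 3.49e-07), 45.5-fold lower, and the libraries of the groups did not come near each other. Klrc1 (NKG2A) had 0.658 and 0.533 RPKM in IL-21 + LDHi cells, against 24.6 and 30.3 RPKM in IL-21 cells. That is a log2 fold change of -5.58 ± 0.26 (edgeR adjusted p = 1.21e-06). Klrc2 (NKG2C) had 0.432 and 0.479 RPKM in IL-21 + LDHi cells, against 9.39 and 10.7 RPKM in IL-21 cells. Its log2 fold change was -4.50 ± 0.32. Although reads of Klrc1 and Klrc2 can be split wrongly between them, both were low in both IL-21 + LDHi libraries.

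Klre1 had 11 reads in each IL-21 + LDHi library, or 0.246 and 0.24 RPKM, against 8.16 and 7.9 RPKM in the IL-21 libraries. It was 33.7-fold lower (log2 -5.07 ± 0.29, edgeR adjusted p = 3.48e-06). Klrd1, the partner chain of the NKG2 receptors, fell less: 69.8 and 61.95 RPKM in IL-21 + LDHi cells, against 170.6 and 198.1 RPKM in IL-21 cells. Its log2 fold change was -1.54 ± 0.23 (edgeR adjusted p = 0.00115). Thus CD94 RNA was still abundant where RNA for the NKG2 chains was below 1 RPKM.

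The 3 members with low levels in IL-21 cells gave fewer reads. Klrg1 had 5 and 2 reads in IL-21 + LDHi cells, against 68 and 43 reads in IL-21 cells, a log2 fold change of -3.96 ± 0.48 (edgeR adjusted p = 0.000288). Without IL-21 + LDHi replicate 1, which held the 5 reads, the log2 value for Klrg1 was -4.76. Klrb1c had 0.325 and 0.235 RPKM in IL-21 + LDHi cells, against 0.908 and 0.562 RPKM in IL-21 cells. Its log2 fold change of -1.40 ± 0.25 was called (edgeR adjusted p = 0.00283), but not in a fit of these 2 groups alone (adjusted p = 0.0625). Ncr1 had 3 and 6 reads in IL-21 + LDHi cells, against 9 and 8 reads in IL-21 cells, and was not called (log2 -0.94 ± 0.68, edgeR adjusted p = 0.32).

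With IL-2, the inhibitor went with higher RNA for NKp46, NK1.1 and Klrg1 and lower RNA for NKG2D, while NKG2A, NKG2C, Klre1 and CD94 were not called. IL-2 + LDHi cells were called higher than IL-2 cells for 3 genes and lower for 1, against 17.8% higher and 21.6% lower over all genes tested. The members' median log2 fold change was -0.06, against 0.01 over all genes tested.

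Ncr1 had 4.34 and 3.9 RPKM (399 and 275 reads) in IL-2 + LDHi cells, against 0.124 and 0.0618 RPKM (9 and 5 reads) in IL-2 cells. It was 42.9-fold higher (log2 5.42 ± 0.54, edgeR adjusted p = 0.000119), and these were the only libraries with more than 16 reads of this gene. Klrb1c had 4.53 and 4.19 RPKM in IL-2 + LDHi cells, against 0.734 and 0.783 RPKM in IL-2 cells. Its log2 fold change was 2.48 ± 0.24 (edgeR adjusted p = 8.99e-05). Klrg1 had 24 and 15 reads in IL-2 + LDHi cells, against 2 and 4 reads in IL-2 cells, a log2 fold change of 2.52 ± 0.51 (edgeR adjusted p = 0.00458). Even so, Klrg1 stayed at or below 0.28 RPKM in both groups.

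Klrk1 was the member called lower, with 16.4 and 14.7 RPKM in IL-2 + LDHi cells, against 38.2 and 43.4 RPKM in IL-2 cells. Its log2 fold change was -1.43 ± 0.14 (edgeR adjusted p = 0.000123), or 2.7-fold. Klrd1 had 105.8 and 100.5 RPKM in IL-2 + LDHi cells, against 148.3 and 152.4 RPKM in IL-2 cells. This difference was not called (log2 -0.58 ± 0.23, edgeR adjusted p = 0.0719) but was in DESeq2 (adjusted p = 0.0367) and in a fit of these 2 groups alone (adjusted p = 1.88e-05). Over all genes, that last fit called many more than the fit of all groups, as given further on. Klrc1, Klrc2 and Klre1 had log2 fold changes of -0.19 ± 0.20, -0.13 ± 0.26 and -0.002 ± 0.219, none called, and the libraries of the groups overlapped for each.

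The inhibitor's effect with IL-21 was then tested against its effect with IL-2 as an interaction. The difference was negative and called for 7 of the 8 genes, and positive and called for 0, while 13.8% of all genes tested were called negative and 7.98% positive. Its log2 size ran from -3.89 ± 0.34 for Klrb1c to -6.48 ± 0.70 for Klrg1 among these 7, the value for Klrg1 being -7.29 without IL-21 + LDHi replicate 1. For Klrd1 it was -0.96 ± 0.32 and not called (edgeR adjusted p = 0.0649), whereas DESeq2 called it (adjusted p = 0.0271). The effects had opposite signs for Klrb1c and Klrg1, which were called lower with IL-21 and higher with IL-2. For Klrk1 both effects were called lower, by 5.51 with IL-21 and 1.43 with IL-2 on the log2 scale.

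**Figure D2:**
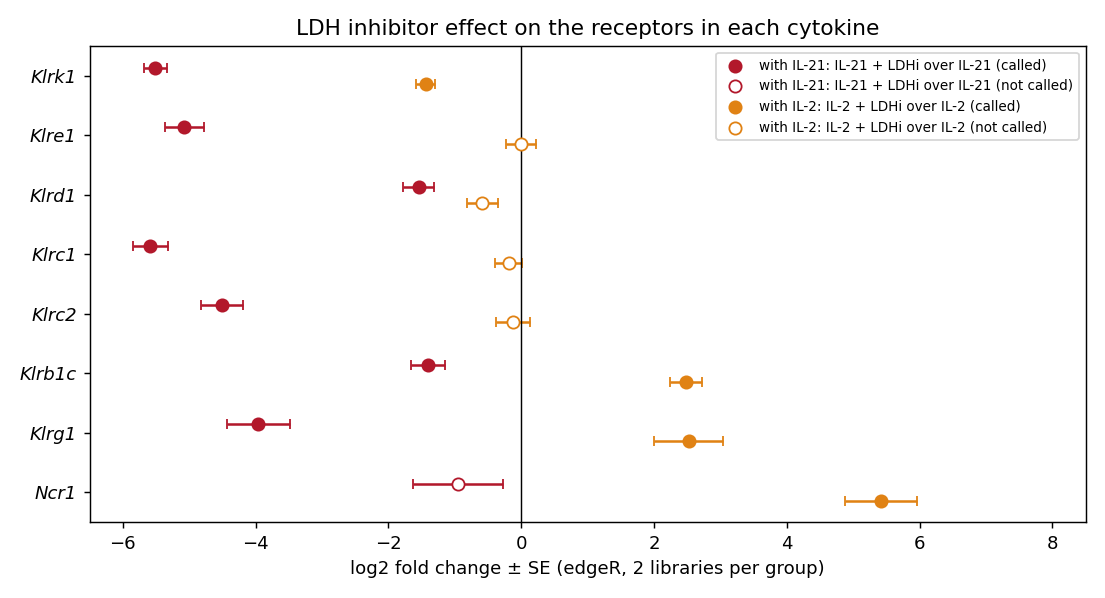
Log2 fold change of each receptor gene with the LDH inhibitor (horizontal axis, bars are SE, n = 2 libraries per group) in cells given IL-21 (red) and in cells given IL-2 (orange), with filled points for called changes. The red points run from -5.58 (Klrc1) to -0.94 (Ncr1), and the orange ones from -1.43 (Klrk1) to 5.42 (Ncr1).

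Between the groups with inhibitor, IL-21 + LDHi cells were called lower than IL-2 + LDHi cells for 7 genes and higher for 0, where 16.7% of all genes tested were called lower and 9.38% higher. The exception was Klrd1 (log2 -0.47 ± 0.23, edgeR adjusted p = 0.172), although its libraries did not overlap and a fit of these 2 groups alone called it (adjusted p = 0.00114). That fit, too, called many more genes than the fit of all groups. Ncr1 was 57.4-fold lower and Klre1 28.5-fold lower in IL-21 + LDHi cells. The call for Klrg1 (log2 -2.09 ± 0.50) was lost without IL-2 + LDHi replicate 1 (adjusted p = 0.0998) or without IL-21 + LDHi replicate 2 (adjusted p = 0.118), and its log2 value was -2.89 without IL-21 + LDHi replicate 1.

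The cytokines alone gave smaller log2 differences among these receptors than the inhibitor did with IL-21, except for Klrg1. Its log2 value was 4.40 in IL-21 against IL-2 cells, given below, and -3.96 for the inhibitor with IL-21. IL-21 cells were called higher than cells without cytokine for 4 genes and lower for 0, against 5.65% called higher and 5.89% lower over all genes tested. Klrc1 had 24.6 and 30.3 RPKM in IL-21 cells, against 8.94 and 8.31 RPKM without cytokine (log2 1.85 ± 0.21, edgeR adjusted p = 0.00109). Klrc2 had 9.39 and 10.7 RPKM in IL-21 cells, against 4.39 and 3.35 RPKM without cytokine (log2 1.55 ± 0.27). Klrk1 was 2.08-fold higher. Klrb1c was 1.83-fold higher at an adjusted p of 0.0496 in edgeR, and its call was lost in most alternatives tried. An edgeR fit of these 2 groups alone called 0 of the 8 genes, with 3 at an unadjusted p below 0.05 (Klrc1 had an adjusted p of 0.0506 and Klrk1 of 0.0921). DESeq2 over all libraries called 4, and without replicate 2 of the cultures with no cytokine 2 genes were called.

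IL-2 cells were called higher than cells without cytokine for 4 genes and lower for 1, against 25.6% called higher and 24.8% called lower over all genes tested. With so many genes called, these counts say little about the receptors in particular. Klrk1 had 38.2 and 43.4 RPKM in IL-2 cells, against 23.3 and 18.2 RPKM without cytokine (log2 0.96 ± 0.14, edgeR adjusted p = 0.000597). Klrc1, Klrc2 and Klrb1c were 1.81-fold, 1.8-fold and 1.7-fold higher, the call for Klrb1c being lost in several alternatives. Klrg1 was 12.1-fold lower, with 2 and 4 reads in IL-2 cells, against 42 and 30 reads without cytokine (edgeR adjusted p = 0.000371). Without IL-2 replicate 2 the count of called genes was 2, and without replicate 2 of the cultures with no cytokine it was 3.

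IL-21 cells were called higher than IL-2 cells for 3 genes and lower for 0, against 24.9% called higher and 24.7% lower over all genes tested. Klrg1 had 0.938 and 0.695 RPKM in IL-21 cells, against 0.0295 and 0.053 RPKM in IL-2 cells, 21.1-fold higher (log2 4.40 ± 0.49, edgeR adjusted p = 0.000137). Klrc1 was 1.99-fold higher (edgeR adjusted p = 0.00391). Klrc2 was 1.63-fold higher, at an adjusted p of 0.0484 in edgeR that rose above 0.05 with the replicate block (0.0596) and in a fit of these 2 groups alone (0.0995). Klrk1 did not differ beyond its spread (log2 0.10 ± 0.14), and its libraries overlapped.

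Against the cultures without cytokine, IL-21 + LDHi cells were called lower for 6 genes and higher for 0, where 23.6% of all genes tested were called lower and 13.5% higher. These 6 were Klrk1 (21.9-fold lower), Klre1 (26.95-fold), Klrc1 (13.3-fold), Klrg1 (8.91-fold), Klrc2 (7.76-fold) and Klrd1 (2.56-fold). Without IL-21 + LDHi replicate 1 the log2 value of Klrg1 was -3.96 here, against -3.16 with both. IL-2 + LDHi cells were called higher for 3 genes and lower for 2, against 10.9% and 13.3% over all genes tested. Here Ncr1 was 25.6-fold and Klrb1c 9.47-fold higher, and both were called in every alternative tried. The log2 value of Ncr1 was 4.02 without replicate 1 and 5.75 without replicate 2 of the cultures with no cytokine, against 4.68 with both. The other calls, of Klrc1 (1.59-fold higher), Klrd1 (1.85-fold lower) and Klrk1 (1.39-fold lower), were each lost when either of the IL-2 + LDHi libraries was left out. Klrc1 and Klrk1 also lost theirs without most of the other single libraries, and Klrd1 without replicate 2 of the cultures with no cytokine (adjusted p = 0.129). Comparisons that share a group share its libraries, so they are no independent evidence of each other.

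Ordered by mean level, Klrk1 stood highest in IL-2 cells (40.8 ± 3.7 RPKM, SD, n = 2) and IL-21 cells (38.7 ± 4.1), which did not differ beyond their spread. It was lower without cytokine (20.7 ± 3.6), in IL-2 + LDHi cells (15.5 ± 1.2) and in IL-21 + LDHi cells (0.869 ± 0.109), each step called. For Klre1 the first 4 groups, from 8.03 ± 0.18 in IL-21 cells to 7.19 ± 1.84 RPKM without cytokine, did not differ from their neighbours beyond the spread, and only IL-21 + LDHi stood apart at 0.243 ± 0.004 RPKM. The order for Klrd1 had no called step between neighbours, from 184.4 ± 19.5 in IL-21 cells to 65.9 ± 5.6 RPKM in IL-21 + LDHi cells. Both Klrc1 and Klrc2 ran from IL-21 through IL-2, IL-2 + LDHi and no cytokine to IL-21 + LDHi. The step from IL-2 to IL-2 + LDHi was not called for either gene, nor was that from IL-2 + LDHi to no cytokine for Klrc2. Klrb1c stood highest in IL-2 + LDHi cells at 4.36 ± 0.24 RPKM, and so did Ncr1 at 4.12 ± 0.31 RPKM, each above the next group by a called step. For Klrg1 the order of means was IL-21, no cytokine, IL-2 + LDHi, IL-21 + LDHi and IL-2, and only the step from IL-2 + LDHi to IL-21 + LDHi was called.

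The balance between partner chains also differed between groups. RPKM of Klrd1 over the summed RPKM of Klrc1, Klrc2 and Klrc3, a sum less affected by how reads are split among the 3, was 57.6 and 53.3 in IL-21 + LDHi cells. It was 4.11 and 4.84 in IL-2 + LDHi cells, 4.68 and 4.52 in IL-21 cells, 6.43 and 5.27 in IL-2 cells, and 9.5 and 17.7 without cytokine. CD94 RNA thus exceeded the summed RNA of its NKG2 partners in every library, and the ratio was highest in IL-21 + LDHi cells. Hcst (DAP10), the adaptor of NKG2D, had 40.3 and 59.3 RPKM in IL-21 + LDHi cells, against 66.1 and 17.4 RPKM in IL-21 cells, and was not called (log2 0.29 ± 0.45). Hcst over Klrk1 was accordingly 42.6 and 74.8 in IL-21 + LDHi cells, against 1.59 and 0.487 in IL-21 cells.

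**Figure D3:**
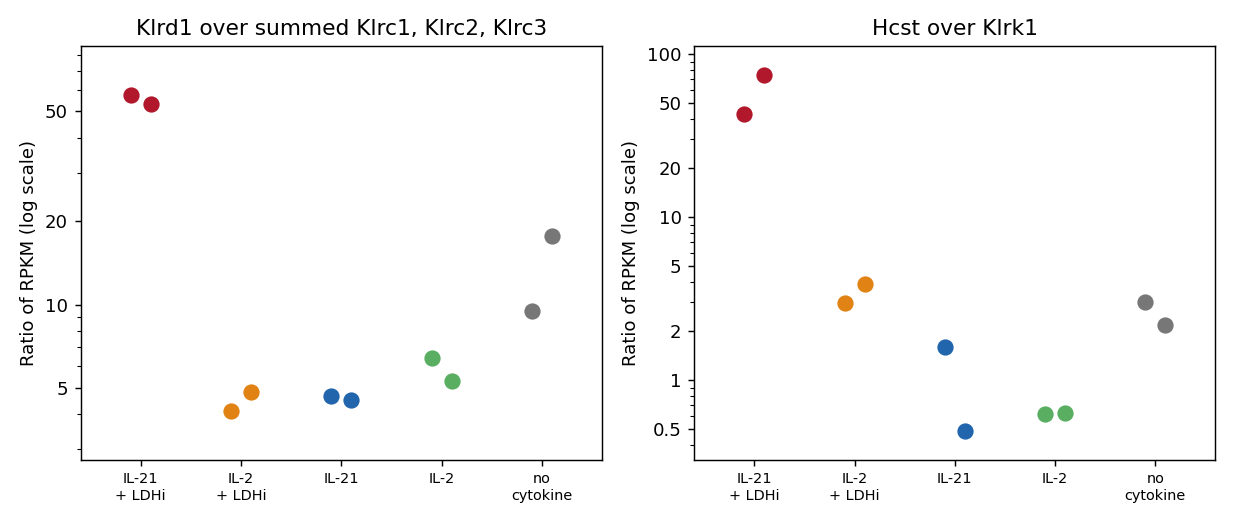
Ratio of RPKM (log axis) of Klrd1 to the summed Klrc1, Klrc2 and Klrc3 (left) and of Hcst to Klrk1 (right), with a dot per library. Both ratios are highest in the IL-21 + LDHi libraries, at 57.6 and 53.3 on the left and 42.6 and 74.8 on the right.

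Among 20 adaptors and signalling partners, all tested, 10 were called lower and 0 higher in IL-21 + LDHi than in IL-21 cells, with a median log2 fold change of -0.40, where 20.3% of all genes tested were called lower. Tyrobp (DAP12, an adaptor of NKG2C) had 1.04 and 1.73 RPKM in IL-21 + LDHi cells, against 8.24 and 7.4 RPKM in IL-21 cells. Fcer1g, the adaptor of NK1.1 and NKp46, fell by 3.22 ± 0.43 on the log2 scale. Lcp2 (SLP-76, a scaffold of receptor signalling) fell by 0.90 ± 0.11 and Sh2d2a, a signalling adaptor of T cells, by 1.29 ± 0.17. With IL-2, 4 of the 20 were called higher and 5 lower in IL-2 + LDHi than in IL-2 cells, near the 17.8% and 21.6% of all genes tested. Both Tyrobp (log2 1.93 ± 0.28) and Fcer1g (log2 1.42 ± 0.40) were higher with IL-2, Sh2d2a was lower (log2 -0.86 ± 0.16) and Lcp2 was not called (log2 -0.26 ± 0.11). Tyrobp and Fcer1g are also abundant in myeloid cells, whose markers are given further on. Of the receptors' ligands 13 of 21 listed genes were tested. In IL-21 + LDHi against IL-21 cells 2 were called lower, Ulbp1 (a ligand of NKG2D, log2 -2.14 ± 0.18) and Cdh1 (a cadherin, log2 -2.94 ± 0.53), and 0 higher, a share no larger than the 20.3% called lower over all genes tested. H2-T23, which encodes Qa-1, was not called (log2 -0.15 ± 0.22).

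Other genes of the same chromosomal stretch were also lower in IL-21 + LDHi cells. From Klre1 to Klra1, 828 kb of the NK gene complex chosen after values were seen, the files list 20 genes, of which 19 were tested. All 19 were called lower in IL-21 + LDHi than in IL-21 cells, among them 14 genes outside the 8, against 20.3% of all genes tested. Their median log2 fold change was -4.83, or -4.52 with Klri1 and Klra14-ps, which had 0 reads in IL-21 + LDHi cells, set at a bound of 3 counts over the group. In IL-2 + LDHi against IL-2 cells 4 of the 19 were called higher and 1, Klrk1, lower, with a median of 0.14. This count of higher genes was near the 17.8% called higher over all genes tested, where 21.6% were called lower. On the other side, from Klrb1a to Gabarapl1 (933 kb, Klrb1c included), 9 of 19 tested genes were called lower in IL-21 + LDHi than in IL-21 cells and 0 higher, with a median of -1.40. Clec7a, Clec1b, Clec9a and Clec12a, lectins of myeloid cells or platelets, were among the 9. In IL-2 against no cytokine they were called lower too (log2 -7.04, -6.18, -3.90 and -3.27), where the median of the stretch was 0.13. In that stretch 7 were called higher, Clec7a and Clec1b among them, and 4 lower in IL-2 + LDHi than in IL-2 cells. Over all genes tested 17.8% were called higher and 21.6% lower.

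**Figure D4:**
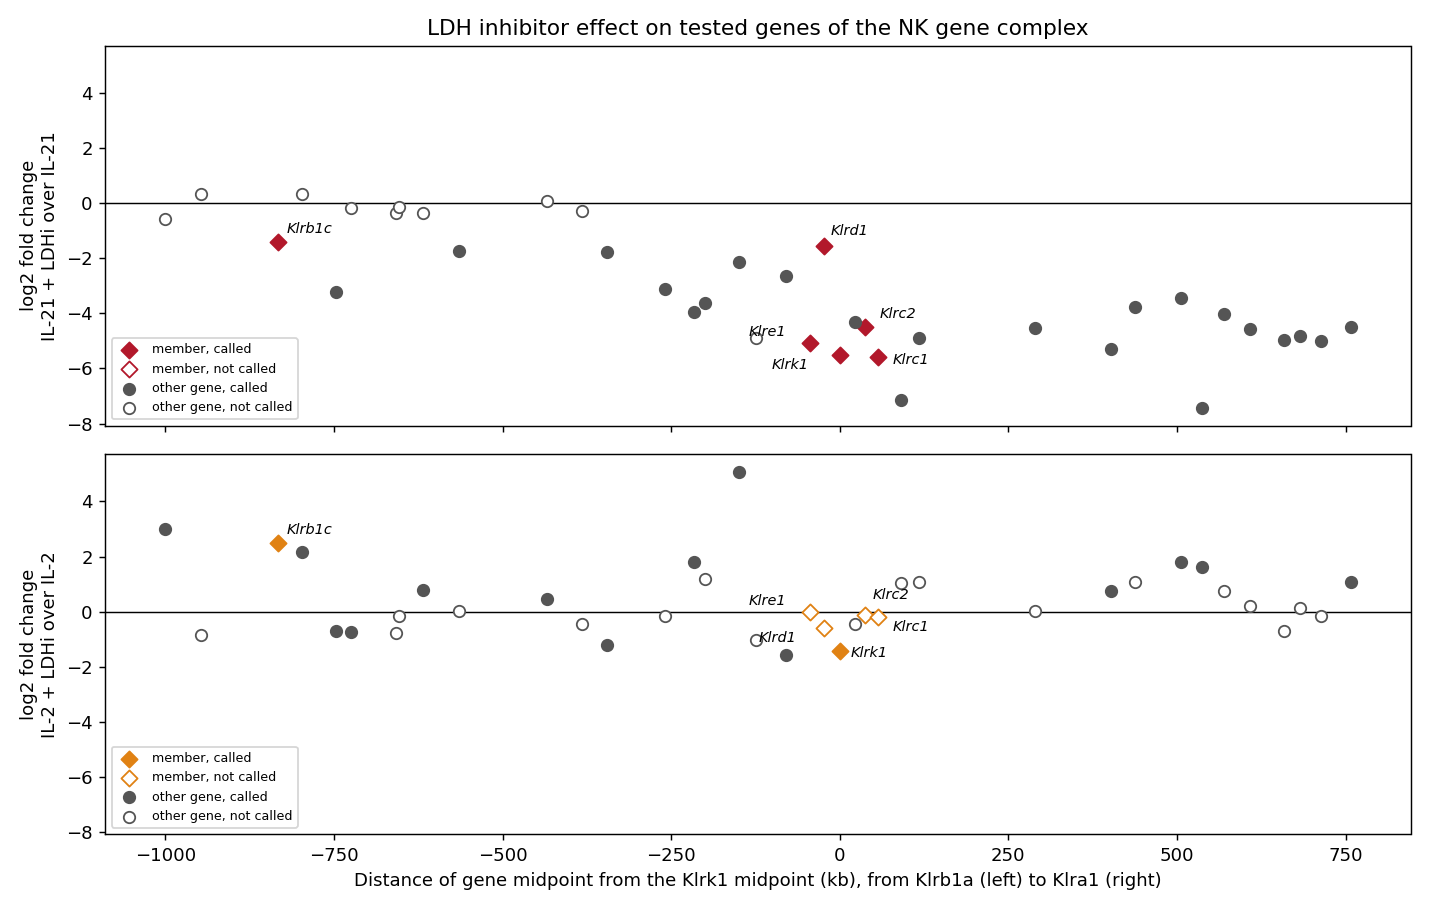
Log2 fold change with the LDH inhibitor in IL-21 cells (top) and in IL-2 cells (bottom) of the 38 tested genes of the NK gene complex, by distance from Klrk1 in kb, with diamonds for the receptor genes and filled symbols for called changes. In the top panel all 19 genes from Klre1 rightward are filled and below 0, and the 2 lowest points (Klri1 and Klra14-ps) had 0 reads in IL-21 + LDHi, so their exact height depends on the fit.

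Of the wider family of other Klr and Ly49 (Klra) genes, 26 of 29 listed genes were tested. In IL-21 + LDHi against IL-21 cells 23 were called lower and 0 higher, against 20.3% and 11.1% of all genes tested. Their median was -4.43 (-4.23 with the genes at 0 reads set at their bound). IL-2 + LDHi cells had 11 of the 26 called higher and 0 lower than IL-2 cells, against 17.8% and 21.6% of all genes tested, with a median of 0.91. In IL-21 against no cytokine 13 were called higher and 0 lower, against 5.65% and 5.89%. Klra7, an inhibitory Ly49 receptor, had 1.54 and 1.69 RPKM in IL-21 + LDHi cells, against 39.5 and 35.9 RPKM in IL-21 cells. Klrb1b, a neighbour of Klrb1c, had 3.55 and 2.79 RPKM in IL-2 + LDHi cells, against 0.652 and 0.743 RPKM in IL-2 cells. Several Ly49 genes are near-identical copies that share reads, so their number overstates how many independent genes moved.

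Of 26 tested transcription factors tied to NK receptor expression, 11 were called lower and 1 higher in IL-21 + LDHi than in IL-21 cells, where 20.3% of all genes tested were called lower and 11.1% higher. Tbx21 (T-bet, a factor of effector and NK cells) had 0.87 and 1.35 RPKM in IL-21 + LDHi cells, against 19.0 and 13.3 RPKM in IL-21 cells (log2 -3.88 ± 0.27, edgeR adjusted p = 9.61e-06). Irf4, a factor of activated T cells, had 0.553 and 0.362 RPKM in IL-21 + LDHi cells, against 5.95 and 5.51 RPKM in IL-21 cells (log2 -3.69 ± 0.21, edgeR adjusted p = 3.08e-06). Ikzf2 (Helios) fell by 1.99 ± 0.11 and Prdm1 (Blimp-1) by 2.65 ± 0.20 on the log2 scale. In IL-2 + LDHi against IL-2 cells 7 of the 26 were called higher and 10 lower, where 17.8% of all genes tested were called higher and 21.6% lower. There Tbx21 was not called (log2 -0.60 ± 0.23), but Irf4 was also lower, with 4.28 and 4.03 RPKM in IL-2 + LDHi cells, against 32.4 and 32.0 RPKM in IL-2 cells (log2 -2.99 ± 0.19, edgeR adjusted p = 1.44e-05). Ikzf2 (log2 -0.86 ± 0.11) and Prdm1 (log2 -1.67 ± 0.18) were called lower with IL-2 as well. Tbx21 was also the gene whose levels were most like those of Klrk1 among 8431 genes compared (Pearson r = 0.984 of log2(RPKM + 1) over the 10 libraries, which share groups). For Klrc1 and Klrc2 it was Klra7 (r = 0.992 for both), for Klre1 Klra13-ps (r = 0.981), for Klrd1 Dstn (r = 0.994), for Klrb1c Paxip1 (r = 0.979) and for Ncr1 Arpp19 (r = 0.967). Among the members Klrc1 and Klrc2 (r = 0.995) and Klrb1c and Ncr1 (r = 0.966) were most alike, whereas Klrk1 and Ncr1 were not (r = 0.035). These coefficients over 10 libraries in 5 groups are descriptions.

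Markers of other cell types also differed between groups. The summed level of 16 NK cell genes beyond the 8, of which 8 are Klr or Ly49 genes counted above, was 17.8 and 18.45 RPKM in IL-21 + LDHi cells, 89.8 and 87.8 in IL-2 + LDHi cells, 95.7 and 101.2 in IL-21 cells, 50.3 and 55.7 in IL-2 cells, and 101.5 and 133.8 RPKM without cytokine. Of the 16, 14 were at or above 1 RPKM in both IL-2 + LDHi libraries, 10 with IL-21, 6 without cytokine, 5 with IL-2 and 4 with IL-21 + LDHi, where Klri1 was listed at 0. In IL-2 against no cytokine 6 of the 16 were called lower and 3 higher, against 24.8% and 25.6% of all genes tested. The 6 include Tyrobp, Fcer1g and Fcgr3 (log2 -4.20, -2.96 and -4.12), which are also abundant in myeloid cells. The part of such cells in the summed level was not tested. Of the 16, 8 were called higher and 0 lower in IL-2 + LDHi than in IL-2 cells, against 17.8% and 21.6% of all genes tested. In IL-21 + LDHi against IL-21 cells 13 were called lower and 0 higher, against 20.3% and 11.1% of all genes tested. The part of these NK cell genes in the receptor results was not tested. The 8 basophil and mast cell genes summed to 1.36 and 2.07 RPKM in IL-21 + LDHi cells, against 107.8 and 139 RPKM in IL-21 cells, and were 1.89 and 2.03 RPKM in IL-2 + LDHi cells, against 4.31 and 5.03 RPKM in IL-2 cells. The 10 macrophage and monocyte genes summed to 7 and 9.87 RPKM in IL-21 + LDHi cells, against 46 and 51.7 RPKM in IL-21 cells, and to 13.2 and 19.1 RPKM in IL-2 + LDHi cells, against 11 and 13.5 RPKM in IL-2 cells. Of these 10 genes, 8 were called higher and 1, Cd68, lower in IL-2 + LDHi than in IL-2 cells, with a median log2 of 3.54. Over all genes tested 17.8% were called higher and 21.6% lower there. In IL-21 + LDHi against IL-21 cells 7 of the 10 were called lower and 0 higher, against 20.3% and 11.1%. Cultures without cytokine held the highest sums of the basophil and macrophage lists, and the part of these cells in the receptor results was not tested. The 4 NKT and innate T cell genes summed to 177.8 and 149.4 RPKM in IL-21 + LDHi cells, 86.1 and 76.4 in IL-2 + LDHi cells, 74.4 and 52.8 in IL-21 cells, 29.2 and 30.3 in IL-2 cells, and 39.0 and 47.0 RPKM without cytokine. These sums were higher with the inhibitor under either cytokine and were mostly Cxcr6 (176.9 and 148.7 RPKM in IL-21 + LDHi cells), while Il4 was listed at 0 in both IL-21 + LDHi libraries. The 4 gamma delta T cell genes in the files, of 8 listed, summed to 1.03 and 0.614 RPKM in IL-21 + LDHi cells, 3.5 and 3.46 in IL-2 + LDHi cells, 5.17 and 3.19 in IL-21 cells, 1.35 and 1.34 in IL-2 cells, and 5.32 and 6.01 RPKM without cytokine. These sums were lower in IL-21 + LDHi than in IL-21 cells and higher in IL-2 + LDHi than in IL-2 cells, with no overlap of libraries. The 4 CD4 T cell genes summed to 1.3 and 0.852 RPKM in IL-21 + LDHi cells, 12.6 and 11.8 in IL-2 + LDHi cells, 3.82 and 3.32 in IL-21 cells, 12.9 and 12.2 in IL-2 cells, and 4.66 and 4.1 RPKM without cytokine. B cell genes summed to 5.89 to 22.8 RPKM and neutrophil genes to 2.31 to 13.9 RPKM over the libraries, and the part of these 5 lists in the receptor results was not tested. The 12 CD8 T cell identity genes summed to 1967 and 1969 RPKM in IL-21 + LDHi cells, against 2721 and 1981 RPKM in IL-21 cells.

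**Figure D5:**
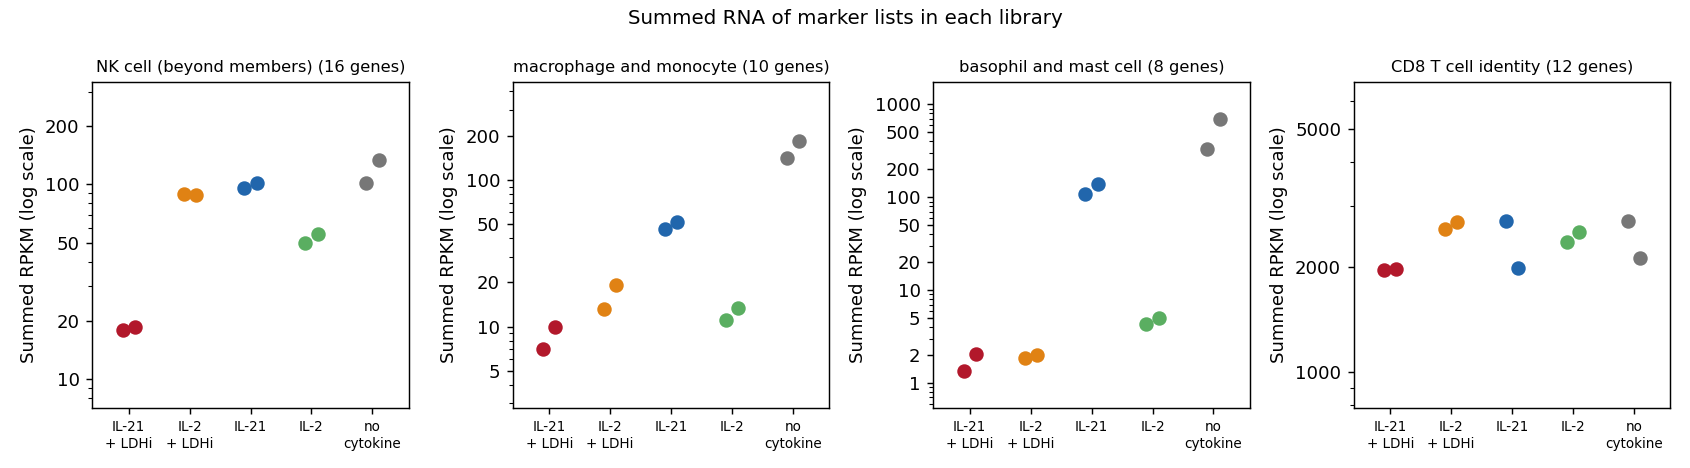
Summed RPKM (log axis) of 4 marker lists in each library (dots) of the 5 groups. The NK cell sum is lowest in IL-21 + LDHi (17.8 and 18.45 RPKM) and, like the basophil and macrophage sums, highest without cytokine. Of its 16 genes, 14 were at or above 1 RPKM in both IL-2 + LDHi libraries and 6 in both without cytokine. CD8 T cell identity genes lie between 1967 and 2721 RPKM throughout.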

How the data were processed

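The authors deposited, for each of the 10 libraries (500 ng RNA each), read counts per RefSeq transcript and RPKM, which per the file headers stand beside the transcript length. Per the submitters' processing notes, TopHat2 2.2.1, Bowtie2 2.2.6, SAMtools 0.1.8, bedtools 2.25.0, edgeR and mm10 were used. The strand setting and read length are not given in the sources used here. The authors' library totals were 45138204 to 62848913 reads.

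Of 31682 transcripts the one with the most reads was kept for each symbol. Counts were tested in R 4.3.3 with edgeR 4.0.16 (filterByExpr with a minimum count of 10 and total of 15, TMM, robust quasi-likelihood fit of 5 group means, 5 residual degrees of freedom, two-sided tests, Benjamini-Hochberg adjustment over genes within each comparison). Alternatives used DESeq2 1.42.0, limma 3.58.1 on log2(RPKM + 1), other scalings and filters, a minimum fold change of 1.5, the longest transcript, a replicate block, fits of the compared groups alone and leaving out each library. Tables and figures were made with Python 3.11.15, pandas 2.3.3, numpy 2.4.6 and matplotlib 3.10.9.

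The 8 genes and all lists were chosen with earlier results of these data known. List genes were named by lowest p in the comparison described, up to 4 per list, and genes of like pattern by the highest Pearson r among genes at 5 RPKM or more in a group. Hcst, H2-T23, the values with IL-2 of the adaptors and transcription factors named for IL-21 and the chromosomal stretches were chosen after their values were seen. Of 34 other Klr and Ly49 symbols 29 were in the files. Exon and window overlaps came from GENCODE transcripts of the same assembly, with windows of 50 bases. Protein sequences were not used here.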

Additional observations from a re-analysis of the deposited data

Results flagged for a closer look

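The inhibitor's effect with IL-21 minus its effect with IL-2 differed from 0 in the interaction test for 7 of the 8 receptor genes. Over all genes tested 13.8% were called negative and 7.98% positive in this test. The log2 differences were -4.07 ± 0.22 for Klrk1 (edgeR adjusted p = 8.11e-06), -5.07 ± 0.37 for Klre1 (3.49e-05), -5.40 ± 0.32 for Klrc1 (1.34e-05) and -4.38 ± 0.41 for Klrc2 (0.00015). They were -3.89 ± 0.34 for Klrb1c (edgeR adjusted p = 0.000105), -6.48 ± 0.70 for Klrg1 (0.000314) and -6.37 ± 0.86 for Ncr1 (0.0011). In each of the 7 the effect with IL-21 was the more negative one. For Ncr1 the effect with IL-21 was itself not called (log2 -0.94 ± 0.68, edgeR adjusted p = 0.32), while that with IL-2 was 5.42 ± 0.54. Klrg1 and Ncr1 rest on few reads, at most 68 and 399 in a library.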

How the results depend on the processing

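Of the 72 log2 fold changes tested for the 8 genes, 48 were called, and none of these 48 changed sign under the 20 alternatives. Over the alternatives 1427 values were computed, of which 1305 kept direction and side of the threshold, 75 lost a call, 23 gained one and 24 changed sign. The cause was not tested.

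A minimum fold change of 1.5 left 2 called genes for IL-2 against no cytokine (5 in the fit as reported) and 2 for IL-2 + LDHi against no cytokine (5). A fit of the compared groups alone left 0 for IL-21 against no cytokine in edgeR (4 as reported and in DESeq2, 3 at an unadjusted p below 0.05). Leaving out 1 library gave 2 to 6 called genes for IL-2 against no cytokine, 2 to 4 for IL-21 against no cytokine, 2 to 6 for IL-2 + LDHi against no cytokine, and 2 to 4 for IL-21 against IL-2.

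Sign changes were all of uncalled values. Klre1 for IL-2 against no cytokine was -0.05 with library size alone and -0.142 to 0.366 leaving out 1 library. Leaving out 1 library gave -0.607 to 0.085 for Klrd1 and -1.41 to 0.322 for Ncr1 in IL-2 against no cytokine, -0.12 to 0.572 for Klrd1 and -0.885 to 0.845 for Ncr1 in IL-21 against no cytokine, and -0.142 to 0.366 for Klre1 in IL-2 + LDHi against no cytokine. For IL-21 against IL-2, limma gave -0.076 for Klrk1 and -0.027 for Klrb1c, which ranged from -0.112 to 0.287 leaving out 1 library. For IL-2 + LDHi against IL-2, Klre1 was 0.116 with library size alone, 0.003 with no filter, 0.02 with limma, 0.009 in the fit of 2 groups and -0.225 to 0.192 leaving out 1 library, and Klrc2 was -0.368 to 0.093.

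Same-numbered libraries of IL-21 and no cytokine deviated together (r = 0.483), those of the other group pairs had r between -0.147 and 0.112, and the labels do not say what the number stands for, so it was not taken as a pairing. With the replicate block IL-21 against no cytokine had 4 called genes, as without it. With the replicate block Klrc1 in IL-2 + LDHi against no cytokine (0.67, adjusted p = 0.0536) and Klrc2 in IL-21 against IL-2 (0.70, adjusted p = 0.0596) lost their calls, and the other 46 calls were kept. Library size alone moved the median of all genes to 0.128 for IL-2 + LDHi against IL-2 and to -0.215 for the interaction. Over all genes, the fit of the compared groups alone called 91 genes for IL-21 against no cytokine (1657 as reported), 2259 for IL-21 + LDHi against IL-21 (4500), 4522 for IL-21 against IL-2 (7123), 7352 for IL-21 + LDHi against IL-2 + LDHi (3741) and 9070 for IL-2 + LDHi against IL-2 (5657). A minimum fold change of 1.5 called 2103 and 2404 for the inhibitor with IL-21 and with IL-2.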

Other observations

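Of a list of NK-associated receptors outside the Klr and Ly49 families 29 genes were tested, with a median log2 fold change of -1.61 in IL-21 + LDHi against IL-21 cells. There 24 were called lower and 0 higher, where 20.3% of all genes tested were called lower. The 24 include Pirb, Slamf8, Fcgr3 and Itgam, which are also abundant in myeloid cells. In IL-2 against no cytokine these genes had log2 fold changes of -5.26, -3.84, -4.12 and -3.69, beside -6.31 for the macrophage gene Csf1r. In that comparison 13 of the 29 were called lower and 8 higher, against 24.8% and 25.6% of all genes tested. The part of myeloid cells in these 24 calls was not tested. Cd160, a receptor of activated CD8+ T and NK cells, had 0.374 and 0.442 RPKM in IL-21 + LDHi cells, against 27.1 and 20.0 RPKM in IL-21 cells (log2 -5.88 ± 0.30, edgeR adjusted p = 2e-06). Tigit, an inhibitory receptor, had 1.14 and 0.951 RPKM in IL-21 + LDHi cells, against 20.0 and 15.2 RPKM in IL-21 cells. It also fell in IL-2 + LDHi cells, to 3.7 and 3.79 RPKM, against 21.2 and 26.5 RPKM in IL-2 cells. In IL-2 + LDHi against IL-2 cells 8 of the 29 were called higher and 9 lower, against 17.8% and 21.6% of all genes tested.

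Of the 8 tested genes on a list of other C-type lectin genes of the NK gene complex, which also holds Gabarapl1, 6 were called lower and 0 higher in IL-21 + LDHi than in IL-21 cells, against 20.3% and 11.1% of all genes tested. The 6 include Clec7a, Clec1b, Clec9a and Clec12a, named above as lectins of myeloid cells or platelets. In IL-2 + LDHi against IL-2 cells 3 of the 8 were called higher, Clec7a and Clec1b among them, and 2 lower, against 17.8% and 21.6%. Gabarapl1, an autophagy gene, had 2.78 and 2.61 RPKM in IL-21 + LDHi cells, against 19.6 and 13.4 RPKM in IL-21 cells.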
